A study of Homo sapiens with 10 samples.

Results

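The cytochrome P450 (CYP), UDP-glucuronosyltransferase (UGT), glutathione S-transferase (GST) and sulfotransferase (SULT) enzymes were examined as a group of drug-metabolizing genes in Caco-2, a human colon carcinoma cell line. Members were all genes with a protein-coding transcript in CYP families 1 to 4, in UGT families 1 and 2, in the GST classes A, K, M, O, P, T and Z, or among the SULTs, chosen by gene symbol. There were 86 members among 19655 genes with a protein-coding transcript: 37 CYP, 19 UGT, 17 GST and 13 SULT genes.

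All 10 libraries came from Caco-2 cells grown in DMEM with fetal bovine serum and carrying dCas9-KRAB, a Cas9 protein that does not cut DNA and is fused to a repressor domain. The dCas9-KRAB line was a stable clone obtained by lentiviral infection and puromycin selection, so the controls carried it too. Cells then received a second lentivirus, with a U6 promoter and a hygromycin marker, that held guide g1 (3 libraries) or g2 (2 libraries) against the long non-coding RNA LHFPL3-AS2, or an empty plasmid (gCtl, 5 libraries). The question was which transcripts differ once LHFPL3-AS2 is targeted, and the 5 guide libraries are called the libraries labelled knockdown.

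CYP enzymes oxidize drugs, steroids and fatty acids, using electrons that reach them from NADPH through P450 reductase. UGT, GST and SULT enzymes then attach glucuronic acid, glutathione or a sulfate group, which makes a compound more water soluble and easier to export. In the intestine these enzymes form a first barrier to what is swallowed, and Caco-2 monolayers are widely used to model drug absorption.

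Depth ranged from 3838803 to 8730468 estimated counts per library. LHFPL3-AS2 (ENSG00000225329.3) was present at 1.73, 0.840, 3.73, 1.73 and 3.12 RPM (counts divided by the library's total and scaled to 1e6) in gCtl, at 3.07, 3.95 and 2.03 RPM in g1, and at 2.16 and 6.01 RPM in g2. The mean of the targeted RNA was therefore not lower in the libraries labelled knockdown (mean 3.45 RPM ± 1.63, SD, n = 5) than in gCtl (2.23 RPM ± 1.17, n = 5; exact two-sided permutation test, p = 0.190, where the smallest possible p is 0.00794), and every direction below is drawn between libraries as they were labelled. These levels rested on 4.39 to 44.0 counts per library. Of 12 enterocyte and Caco-2 markers, 10 were above 3 RPM on average, and SI and ALPI, enzymes of the mature brush border, were below that level. In bulk libraries, fewer cells of a type and less RNA per cell cannot be told apart. The summed level of 4 hepatocyte markers, 3 of them above 3 RPM on average, was 194 to 268 RPM in gCtl, 442 to 1130 RPM in g1 and 214 to 241 RPM in g2, and its part in the g1 results was not tested.

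Of the 86 enzyme genes, 29 passed the expression filter, which asked for over 3 RPM in 20% or more of libraries (9 CYP, 2 UGT, 11 GST and 7 SULT genes). A further 49 had some counts below it, and 8 had none in any library (CYP2A7, CYP2A13, CYP3A7-CYP3A51P, CYP4F22, GSTA3, GSTM5, UGT1A3 and UGT1A5). For a gene whose reads are its own, a count of 0 over all 10 libraries allows a level of up to 0.0528 RPM (3 counts, counting error only). UGT1A3 and UGT1A5 share their last exons with other UGT1A genes, so their counts of 0 set no such limit. The limit may also not hold for CYP3A7-CYP3A51P, which lies within CYP3A7 on the same strand. Nor may it hold for CYP2A7, CYP2A13 and GSTA3, which share sequence with the 3′ ends of CYP2A6 or GSTA1. QuantSeq reads start near the 3′ end of an RNA, so RPM was taken as the level of a gene without dividing by length, and TPM, which divides by transcript length, as the alternative.

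The GSTs held most of the signal of the 4 families in gCtl, with a summed level of 799 RPM ± 35.5 (SD, n = 5). The SULTs followed at 155 RPM ± 9.02, then the CYPs at 114 RPM ± 10.5 and the UGTs at 19.6 RPM ± 0.952. These sums take all transcripts of a gene, including retained introns and others not annotated as protein-coding. GSTP1 alone, the pi-class transferase found in many tumours, made up 62.2% of the GST total at 497 RPM ± 28.2. The next levels were GSTO1 at 110 RPM ± 21.1 and SULT1B1, a sulfotransferase of small phenols and thyroid hormone found in the gut, at 75.5 RPM ± 9.64.

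Below these 3 genes came GSTA2 at 40.1 RPM ± 6.0, GSTM3 at 39.3 RPM ± 6.91, CYP3A5 at 36.4 RPM ± 5.32 and SULT1A3 at 34.3 RPM ± 7.99. These 4 neighbours lay within each other's spread. SULT1A1 (26.4 RPM ± 2.95), GSTK1 (23.8 RPM ± 5.84), GSTM4 (23.1 RPM ± 5.34), GSTZ1 (19.9 RPM ± 4.52) and GSTA1 (18.4 RPM ± 3.5) formed the next run of overlapping levels. For SULT1A1, 28.0% of the counts over all libraries were assigned to protein-coding transcripts. Of the 10 highest genes by RPM, 9 were also among the 10 highest by TPM, where SULT1B1 moved from rank 3 to rank 10 and GSTA1 replaced SULT1A1.

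Other members past the filter were at lower levels in gCtl. They were GSTO2 (15.2 RPM ± 2.06), CYP2S1 (13.1 RPM ± 4.06), CYP2R1 (11.9 RPM ± 1.73), UGT1A1 (10.6 RPM ± 1.90), GSTM2 (9.36 RPM ± 2.71), CYP1A2 (8.89 RPM ± 1.51) and CYP4V2 (6.97 RPM ± 1.33). For CYP4V2, 0.322% of the counts over all libraries were assigned to protein-coding transcripts. CYP1A1, CYP4F8, CYP4F3, SULT1A4, SULT2A1 and SULT1C2 lay between 3.99 and 6.72 RPM, and SULT1E1, GSTA4 and UGT1A10 between 1.39 and 2.98 RPM.

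**Figure D1:**
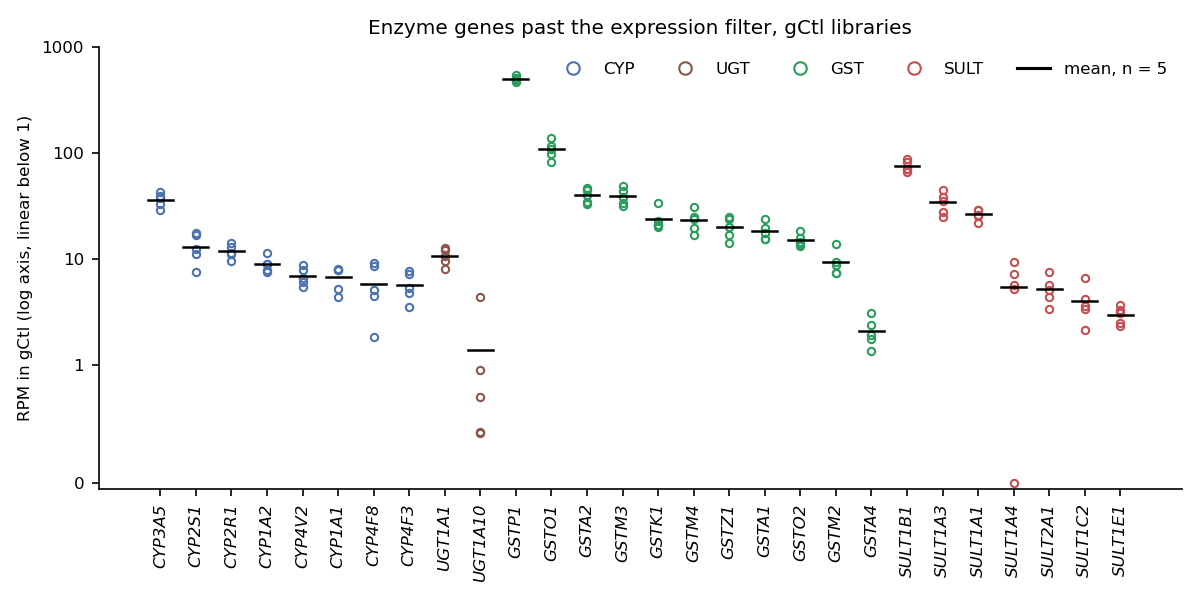
Level of enzyme genes past the filter in the 5 gCtl libraries, in RPM on an axis that is logarithmic above 1 and linear below it. Circles are libraries, coloured by family, and black lines are means (n = 5). GSTP1 stands at 497 RPM, while 2 UGT genes reach 10.6 and 1.39 RPM.

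Several enzymes that dominate drug metabolism in liver and small intestine stayed below the filter. CYP3A4, the main drug-oxidizing CYP of the adult liver and gut, had 5.14 counts in all of gCtl, 3.47 in g1 and 11.2 in g2. CYP2D6 had 11.0 counts over all libraries, CYP2E1 had 2 and CYP2C19 had 24.6. GSTM1, which many people lack through a gene deletion, had 1.08 counts. The end of its main transcript, near which reads start, was shared in full with GSTM2. Reads from there could not be told apart, so the low count does not show that GSTM1 was absent. UGT2B7, which conjugates morphine and other opioids, had 91.0 counts, and UGT2A3 reached the highest single value below the filter, 5.73 RPM in 1 library.

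**Figure D2:**
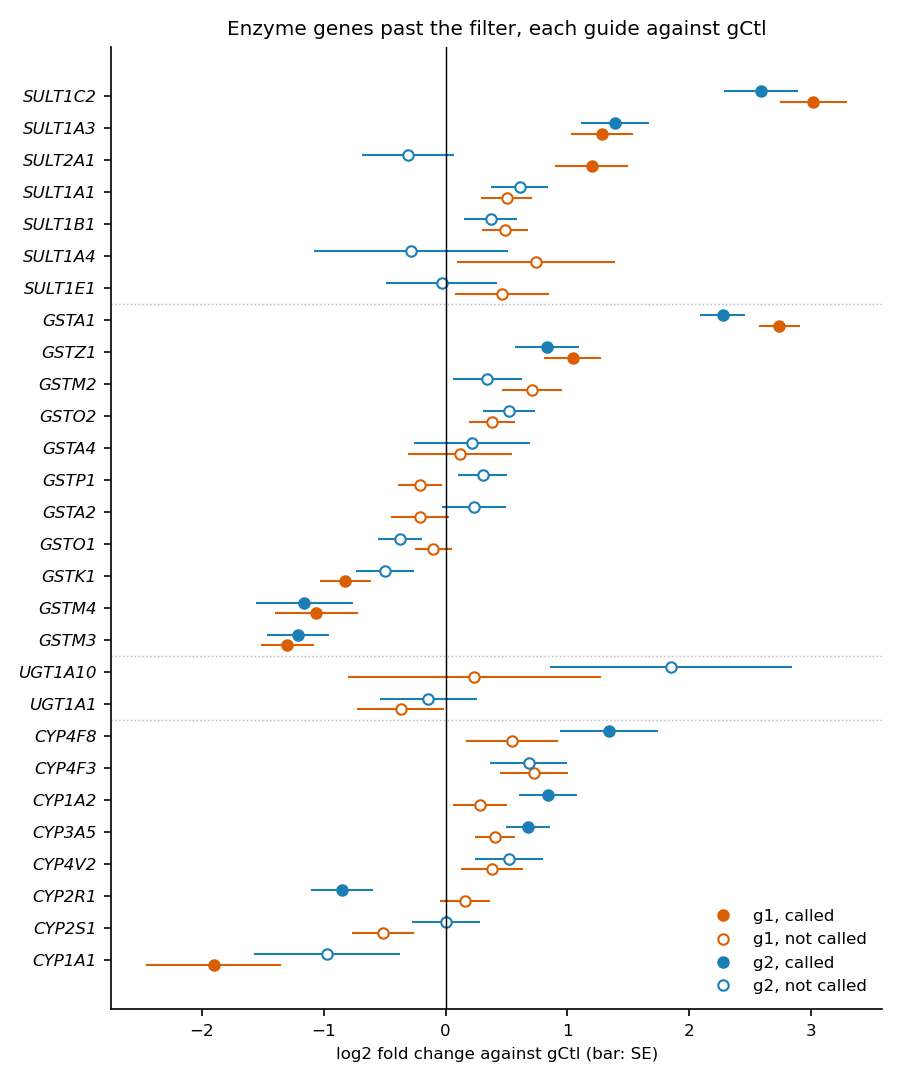
Log2 fold change against gCtl of enzyme genes past the filter for guide g1 (orange) and guide g2 (blue), ordered within SULT, GST, UGT and CYP from top to bottom. Filled points passed both call thresholds (adjusted p 0.05, fold 1.5), open points did not, and bars are SEs. SULT1C2 and GSTA1 lie furthest to the right with both guides.

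In the comparison of the 5 libraries labelled knockdown with the 5 gCtl libraries, 9 of the 29 tested enzyme genes were called, 5 higher and 4 lower, against a background of 19.2% of 11640 genes tested (8.14% higher and 11% lower). A call required an adjusted p no greater than 0.05 (edgeR quasi-likelihood test, Benjamini-Hochberg over all genes tested) and 1.5-fold or more between groups. The median log2 fold change of the 29 genes was 0.44, beside 0.02 over all genes. GSTA1, SULT1C2, SULT1A3, GSTZ1 and CYP4F3 rose, while CYP1A1, GSTM3, GSTM4 and GSTK1 fell. With normalization to library totals the split became 4 higher and 5 lower.

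Against the same gCtl libraries, 9 genes were called for g1 (5 higher, 4 lower; background 16.7%, 6.81% higher and 9.91% lower) and 10 for g2 (7 higher, 3 lower; background 23.7%, 10.7% higher and 13% lower, and 4 higher and 3 lower with library totals). The 2 comparisons share their controls. For g1, GSTA1, SULT1C2, SULT1A3, GSTZ1 and SULT2A1 were higher and GSTM3, GSTM4, GSTK1 and CYP1A1 lower. For g2, GSTA1, SULT1C2, SULT1A3, GSTZ1, CYP1A2, CYP3A5 and CYP4F8 were higher and GSTM3, GSTM4 and CYP2R1 lower. With the comparison of g2 against g1 included, 14 members were called in at least 1 comparison and 15 in none, where 32.8% of all genes tested were called in at least 1. In 6 of the 29 genes the 2 groups of 5 did not overlap, 3 above (GSTA1, SULT1A3 and SULT1C2) and 3 below (GSTK1, GSTM3 and GSTM4), beside 15.5% of all genes (7.13% above and 8.33% below).

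GSTA1 and GSTA2, alpha-class transferases that lie next to each other on chromosome 6, are shown first because they have nearly the same promoter sequence and differed in response. Of the 250 bases before the RefSeq start of each gene (GRCh38.p14), 7 differed, an identity of 97.2%. The 94 bases nearest the start fall within the gene in the GENCODE 29 annotation and are left out, and 4 of the differences, in capitals, lie in the 156 bases printed here. They are chr6:52803911-52804066 for GSTA1 and chr6:52763570-52763725 for GSTA2, both on the minus strand.
GSTA1: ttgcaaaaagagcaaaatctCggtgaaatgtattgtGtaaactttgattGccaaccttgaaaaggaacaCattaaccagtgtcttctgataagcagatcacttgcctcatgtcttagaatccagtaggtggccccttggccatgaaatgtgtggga
GSTA2: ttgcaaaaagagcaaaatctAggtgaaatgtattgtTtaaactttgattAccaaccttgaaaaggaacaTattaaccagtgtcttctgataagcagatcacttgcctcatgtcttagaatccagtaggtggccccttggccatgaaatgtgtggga

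GSTA1 (ENSG00000243955, chr6:52791664-52803910, minus strand, GRCh38) conjugates glutathione to electrophiles and is a major transferase of liver and small intestine. Its normalized level was 22.7, 14.9, 14.8, 17.1 and 19.7 CPM (as RPM, after TMM normalization) in gCtl, 108, 141 and 107 CPM in g1, and 75.3 and 96.5 CPM in g2. Every guide library was above every gCtl library. The log2 fold change was 2.57 ± 0.18 (SE; adjusted p = 1.5e-06, edgeR) for the libraries labelled knockdown, 2.74 ± 0.17 for g1 and 2.27 ± 0.18 for g2.

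GSTA2 (chr6:52750089-52763569, minus strand) was at 45.2, 31.9, 43.2, 33.5 and 40.5 CPM in gCtl, at 40.0, 42.8 and 19.0 CPM in g1, and at 56.1 and 35.6 CPM in g2. These groups overlapped, and the log2 fold change was -0.01 ± 0.22 (adjusted p = 0.975, edgeR). The ratio of GSTA1 to GSTA2 within a library lay between 0.343 and 0.511 in gCtl and between 1.34 and 5.65 in the guide libraries. GSTA4, the third alpha-class gene past the filter, which prefers products of lipid peroxidation, had a log2 fold change of 0.16 ± 0.36.

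Reads of the 2 genes could be told apart only in part. Of the 31-base stretches in the last 300 bases of the main GSTA1 transcript, 51.9% were found in no other gene and 38.1% were shared with GSTA2, whereas all those of the main GSTA2 transcript were its own. Summed over all 5 GSTA genes, the level was 50.2 to 74.0 RPM in gCtl and 120 to 191 RPM in the guide libraries, a log2 fold change of 1.32 ± 0.15.

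SULT1C2 (ENSG00000198203, chr2:108288639-108309915, plus strand), a sulfotransferase of small phenols, stood at 2.0, 3.30, 4.01, 3.37 and 6.51 CPM in gCtl. It reached 22.0, 35.7 and 38.2 CPM in g1 and 25.6 and 21.9 CPM in g2, so that the lowest guide library was above the highest gCtl library. This was the greatest rise among the 29 genes, with a log2 fold change of 2.87 ± 0.27 (adjusted p = 2.58e-05, edgeR), 3.02 ± 0.28 for g1 and 2.59 ± 0.30 for g2. Of its counts, 60.6% were assigned to 1 transcript of 6366 bases annotated as a retained intron and 38.1% to protein-coding transcripts. Both kinds were higher: the former averaged 3.04 RPM ± 1.87 in gCtl and 15.9 RPM ± 4.58 in the guide libraries (n = 5 each).

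The neighbours of SULT1C2 on the same strand, SULT1C3 (chr2:108247195-108265351) and SULT1C4 (chr2:108377911-108388057), did not pass the filter and are given as counts. SULT1C3 had 0 counts in each gCtl library, 0, 1 and 13.0 in g1, and 15.0 and 16.0 in g2. A count of 0 over gCtl allows up to 0.124 RPM. SULT1C4 had between 0 and 6.07 counts in a gCtl library, 11.0, 8.34 and 24.1 in g1, and 8.01 and 22.3 in g2. All 5 guide libraries held more SULT1C4 counts than any gCtl library, but the libraries differed in depth. In RPM the highest gCtl value was 1.09 and the lowest guide value 1.31.

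SULT1A3 (ENSG00000261052, chr16:30199228-30204310, plus strand) encodes the sulfotransferase of dopamine and other catecholamines. It was at 43.0, 33.6, 24.2, 37.1 and 28.0 CPM in gCtl, at 58.1, 103 and 80.4 CPM in g1, and at 50.2 and 123 CPM in g2, with no overlap. The fitted log2 fold change was 1.32 ± 0.23 (adjusted p = 0.00127, edgeR), 1.28 ± 0.25 for g1 and 1.39 ± 0.28 for g2. The g2 value rested on its second library, and without it was 0.61 with an adjusted p of 0.172 (edgeR; the range over all alternatives was 5.78e-05 to 0.172).

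SULT1A3 cannot be separated from its duplicate SULT1A4 (chr16:29459889-29464976, plus strand). The 250 bases before the start of both genes were 100% identical, and 0% of the 31-base stretches at the 3′ end of SULT1A3 were its own, all being shared with SULT1A4 or with read-through genes named after the pair. SULT1A4 was assigned 5.36 CPM ± 3.37 in gCtl, 9.14 CPM ± 6.58 in g1 and 4.36 CPM ± 5.15 in g2, and was not called. Taken as 1 unit, the pair was at 30.2 to 44.9 RPM in gCtl and at 46.3 to 123 RPM in the guide libraries, a log2 fold change of 1.23 ± 0.21. The read-through genes were not part of this sum, so reads shared out between them and the pair remain unresolved.

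The other sulfotransferases past the filter moved less. SULT1A1, the main phenol sulfotransferase of the liver, had a log2 fold change of 0.55 ± 0.19 (adjusted p = 0.0441, edgeR), under the required fold, and SULT1B1 one of 0.44 ± 0.17 (adjusted p = 0.0727). SULT1E1, the estrogen sulfotransferase, had 0.28 ± 0.35 (adjusted p = 0.587). Summed over the 13 SULT genes, the level was 155 RPM ± 9.02 in gCtl (n = 5), 281 RPM ± 69.7 in g1 (n = 3) and 242 RPM ± 38.7 in g2 (n = 2).

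SULT2A1 (ENSG00000105398, chr19:47870466-47886397, minus strand), which sulfonates steroids and bile acids, differed between the guides. It was at 3.25, 5.51, 7.32, 4.81 and 4.40 CPM in gCtl, at 12.8, 15.4 and 7.43 CPM in g1, and at 4.66 and 3.63 CPM in g2. All g1 libraries were above gCtl and the g2 libraries lay within it. By log2 fold change, SULT2A1 was at 1.2 ± 0.30 for g1 (adjusted p = 0.0109, edgeR), -0.31 ± 0.38 for g2 and -1.51 ± 0.40 for g2 against g1 (adjusted p = 0.0401).
The g1 call was lost without g1 replicate 2 (0.98, adjusted p = 0.0669, edgeR; range over the alternatives 0.00357 to 0.121). The call between guides was lost without any of gCtl replicates 2 and 4, g1 replicates 1 and 2 or either g2 replicate, with values from -1.68 to -1.28 and adjusted p from 0.0549 to 0.160, and it was also lost over protein-coding transcripts alone (-1.49). The summed hepatocyte markers were also higher in the g1 libraries (442 to 1130 RPM) than in gCtl (194 to 268 RPM), and their part in the SULT2A1 result was not tested.

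GSTZ1 (ENSG00000100577, chr14:77320884-77331597, plus strand), the zeta-class enzyme that also acts in tyrosine breakdown, rose. It was at 13.5, 16.2, 23, 19.5 and 24.6 CPM in gCtl, at 38.7, 41.2 and 40.5 CPM in g1, and at 21.5 and 47.4 CPM in g2. The first g2 library fell inside the gCtl range. Its log2 fold change was 0.96 ± 0.21 (adjusted p = 0.00524, edgeR), 1.04 ± 0.23 for g1 and 0.83 ± 0.26 for g2 (adjusted p = 0.0287).
Without g2 replicate 2 the g2 value was 0.15 (adjusted p = 0.760, edgeR), and without gCtl replicate 1, 2 or 4 it was 0.73, 0.77 and 0.83 with adjusted p from 0.0505 to 0.0634 (range over the alternatives 0.00188 to 0.760). The g2 call was also lost with library totals (0.68), with limma (0.58) and over protein-coding transcripts alone (0.54). In g1 the 1338-base protein-coding transcript went from 8.52 RPM ± 1.55 in gCtl to 22.8 RPM ± 1.83, while in g2 it was 11.0 RPM ± 3.79. Over all libraries, 47.4% of the counts were assigned to protein-coding transcripts and 52.6% to a retained intron transcript of 5356 bases. The latter was at 11.4 RPM ± 3.29 in gCtl, 16.5 RPM ± 2.56 in g1 and 21.1 RPM ± 13.8 in g2.

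The mu-class transferases, which lie in 1 cluster on chromosome 1, were lower in part. GSTM3 (ENSG00000134202, chr1:109733932-109741038, minus strand) was at 30.7, 32.5, 41.9, 37.1 and 48.7 CPM in gCtl, at 15.2, 19.2 and 12.7 CPM in g1, and at 12.4 and 20.5 CPM in g2. Every guide library was below every gCtl library. The log2 fold change was -1.26 ± 0.19 (adjusted p = 0.000419, edgeR), -1.30 ± 0.22 for g1 and -1.21 ± 0.25 for g2. Counted over protein-coding transcripts alone, the fall was -0.84 (adjusted p = 0.0397, the highest over the alternatives, of which the lowest was 3.95e-08), and neither guide was called by itself (-0.96 and -0.68).

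GSTM4 (ENSG00000168765, chr1:109656081-109674836, plus strand) was at 24, 29.4, 16.2, 18.8 and 23.7 CPM in gCtl, at 14.3, 14.4 and 4.26 CPM in g1, and at 6.81 and 13.1 CPM in g2. The groups did not overlap, with a log2 fold change of -1.10 ± 0.29 (adjusted p = 0.0146, edgeR), -1.06 ± 0.34 for g1 and -1.16 ± 0.40 for g2. Over protein-coding transcripts alone the value was -0.68 and was not called (adjusted p = 0.189, the highest over the alternatives, of which the lowest was 0.00276).
Leaving out gCtl replicate 1, 2 or 4, or g1 replicate 3, ended the g1 call, with values from -1.12 to -0.66 (adjusted p from 0.0528 to 0.140, edgeR). For g2 the libraries were gCtl replicates 1, 2, 4 and 5 and g2 replicate 1, with values from -1.22 to -0.78 (adjusted p from 0.0529 to 0.232).

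GSTM2, which overlaps GSTM4 on the same strand (chr1:109668022-109709551), was not called. It was at 7.0, 9.0, 7.15, 8.42 and 13.9 CPM in gCtl, at 16.3, 15.6 and 13.0 CPM in g1, and at 9.32 and 13.8 CPM in g2 (log2 fold change 0.57 ± 0.23, adjusted p = 0.0813, edgeR). Only 16.0% of its counts were assigned to protein-coding transcripts. The ratio of GSTM2 to GSTM3 within a library was 0.171 to 0.285 in gCtl and 0.674 to 1.08 in the guide libraries.

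The difference in GSTM3 sat in its shorter transcripts. The 4046-base transcript was at 15.9 RPM ± 3.21 in gCtl and 13.8 RPM ± 3.77 in the guide libraries (n = 5 each). The 1565-base transcript was at 11.0 RPM ± 8.52 and 0.377 RPM ± 0.843, and it was listed at 0 in 4 of the 5 guide libraries. The 783-base processed transcript was at 11.4 RPM ± 5.47 and 1.35 RPM ± 1.30. In GSTM4 the 913-base processed transcript went from 11.2 RPM ± 2.46 to 3.13 RPM ± 2.76 and the 3990-base transcript from 10.1 RPM ± 3.02 to 6.90 RPM ± 3.97. Reads compatible with more than 1 transcript were shared out by estimation, which makes these levels less certain than the gene sums.

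GSTK1 (ENSG00000197448, chr7:143244093-143270854, plus strand), the kappa-class transferase of mitochondria and peroxisomes, was also lower. It was at 20.2, 32.7, 19.2, 22.1 and 20.9 CPM in gCtl, at 14.2, 14.1 and 11.0 CPM in g1, and at 16.1 and 16.6 CPM in g2, with no overlap. For GSTK1 the log2 fold change was -0.68 ± 0.19 (adjusted p = 0.0169, edgeR), -0.82 ± 0.21 for g1 (adjusted p = 0.0124) and -0.50 ± 0.24 for g2, which was not called. Without gCtl replicate 2, its highest library, the first value was -0.52 (adjusted p = 0.0582), and without g1 replicate 3 the g1 value was -0.72 (adjusted p = 0.0646). Over all alternatives the adjusted p ran from 0.00153 to 0.628 and from 0.0034 to 0.376.
The 1044-base protein-coding transcript of GSTK1 was at 17.3 RPM ± 5.14 in gCtl and 5.42 RPM ± 2.40 in the guide libraries. The 875-base retained intron transcript was at 4.17 RPM ± 1.30 and 6.37 RPM ± 2.0. Over protein-coding transcripts alone the log2 fold change of GSTK1 was -1.54 (adjusted p = 0.00153, edgeR).

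The most abundant GSTs were not called. GSTP1 lay between 446 and 517 CPM in gCtl, between 268 and 540 CPM in g1, and at 567 and 624 CPM in g2, a log2 fold change of 0.02 ± 0.18 (adjusted p = 0.954, edgeR). GSTO1 had -0.20 ± 0.15 and GSTO2, the other omega-class gene, 0.44 ± 0.17. The summed GST level was 799 RPM ± 35.5 in gCtl (n = 5), 783 RPM ± 88.0 in g1 (n = 3) and 853 RPM ± 82.2 in g2 (n = 2), within the spread of the libraries.

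CYP1A1 and CYP1A2, which oxidize aromatic hydrocarbons and are induced through the aryl hydrocarbon receptor AHR, differed in response. CYP1A1 (ENSG00000140465, chr15:74719542-74725610, minus strand) was at 7.75, 4.22, 7.67, 5.05 and 7.92 CPM in gCtl, at 0.833, 0.211 and 3.65 CPM in g1, and at 4.84 and 1.89 CPM in g2. The first g2 library lay inside the gCtl range and the other 4 guide libraries below it. The log2 fold change was -1.47 ± 0.48 (adjusted p = 0.0372, edgeR), -1.90 ± 0.55 for g1 (adjusted p = 0.0237) and -0.97 ± 0.60 for g2 (adjusted p = 0.241).
The first call was lost without any of gCtl replicates 1, 3, 4 and 5, g1 replicate 1 or g2 replicate 2, with values from -1.55 to -1.26 (adjusted p from 0.0554 to 0.0806, edgeR), and over protein-coding transcripts alone (-1.53). The g1 call was lost without gCtl replicate 3, g1 replicate 1 or g1 replicate 2, with values from -1.85 to -1.47 (adjusted p from 0.0515 to 0.0951).

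CYP1A2 (ENSG00000140505, chr15:74748844-74756202, plus strand) was at 7.25, 7.53, 11.0, 8.66 and 8.97 CPM in gCtl, at 12.8, 9.92 and 9.13 CPM in g1, and at 14.3 and 16.9 CPM in g2. It was called for g2 alone, with a log2 fold change of 0.84 ± 0.24 (adjusted p = 0.0185, edgeR), beside 0.28 ± 0.22 for g1. The difference between the guides, 0.56 ± 0.26, was not called (adjusted p = 0.241). Without g2 replicate 2 the g2 value was 0.72 (adjusted p = 0.135; range over the alternatives 0.0126 to 0.294), and the call was also lost with library totals and with limma. The ratio of CYP1A2 to CYP1A1 was 0.935 to 1.78 in gCtl and 2.5 to 47.0 in the guide libraries. The highest ratios, 47.0 in g1 replicate 2 and 15.4 in g1 replicate 1, rested on 1 and 5 CYP1A1 counts and are uncertain. The 2 genes summed had a log2 fold change of -0.03 ± 0.21. Of the 31-base stretches at the 3′ end of CYP1A2, 51.9% were in no other gene.

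CYP3A5 (ENSG00000106258, chr7:99648194-99680026, minus strand), the member CYP with the highest level in gCtl, shares many drug substrates with CYP3A4. It was at 28.0, 31.8, 41.5, 38.0 and 37.1 CPM in gCtl, at 50.7, 40.7 and 48.8 CPM in g1, and at 48.2 and 64.5 CPM in g2. It was called for g2 (0.68 ± 0.18, adjusted p = 0.0126, edgeR), while the value for all libraries labelled knockdown, 0.52 ± 0.15 (adjusted p = 0.0224), was under the required fold. Without g2 replicate 2 the g2 value was 0.45 (adjusted p = 0.175; range over the alternatives 0.00562 to 0.487), and library totals and limma also ended the call. Of the CYP3A5 counts, 85.8% were assigned to a retained intron transcript of 2594 bases and 2.22% to protein-coding transcripts.

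CYP4F8 and CYP4F3, neighbours on chromosome 19 that hydroxylate fatty acids and eicosanoids, were higher in part of the comparisons. CYP4F8 (chr19:15615218-15630638, plus strand) was at 5.0, 4.22, 8.37, 1.68 and 9.15 CPM in gCtl, at 8.50, 9.92 and 7.18 CPM in g1, and at 10.6 and 18.8 CPM in g2, and was called for g2 (1.34 ± 0.40, adjusted p = 0.0227, edgeR). All of its counts came from a retained intron transcript of 3117 bases. The call was lost without g2 replicate 2 (0.87, adjusted p = 0.289) or gCtl replicate 2 (1.24, adjusted p = 0.0518), and the range over the alternatives was 0.00686 to 0.289.
CYP4F3 (chr19:15640897-15662825, plus strand) was at 3.25, 4.59, 6.98, 5.05 and 7.74 CPM in gCtl, at 7.66, 9.29 and 10.7 CPM in g1, and at 8.07 and 9.88 CPM in g2. Its call for the libraries labelled knockdown (0.71 ± 0.25, adjusted p = 0.0497, edgeR) lay at the threshold. It was lost without any of gCtl replicates 1 to 4, g1 replicates 2 and 3 or either g2 replicate, with values from 0.58 to 0.81 and adjusted p from 0.0508 to 0.114. It was also lost with library totals, both other filters, limma and protein-coding transcripts alone, and was kept in 4 of 18 alternatives. CYP4F12, a relative below the filter, had 0, 3.31, 5, 0 and 2 counts in gCtl, 7.09, 13.0 and 26.3 in g1, and 13.0 and 9.03 in g2.

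CYP2R1 (ENSG00000186104, chr11:14877440-14892252, minus strand), a vitamin D 25-hydroxylase, was lower with g2 alone. It was at 9.25, 12.5, 10.8, 11.1 and 14.1 CPM in gCtl, at 13.0, 14.4 and 11.6 CPM in g1, and at 6.28 and 6.54 CPM in g2, where both libraries were below all others. The log2 fold change was -0.85 ± 0.25 for g2 (adjusted p = 0.0227, edgeR), 0.16 ± 0.21 for g1 and -1.01 ± 0.27 for g2 against g1 (adjusted p = 0.0433).
Leaving out either g2 library ended the call for g2 (-0.83 and -0.88, adjusted p = 0.0675 and 0.0971, edgeR; range over the alternatives 0.00881 to 0.290). The call between guides was lost without any of gCtl replicates 2, 3 and 4, or any g1 or g2 library, with values from -1.07 to -0.93 (adjusted p from 0.0529 to 0.115, edgeR). Over protein-coding transcripts alone neither was called (-0.70 for g2 and -1.05 between guides). CYP2R1 and SULT2A1 were the 2 enzyme genes of 29 called between the guides, both lower in g2, beside a background of 4.97% (1.55% higher and 3.42% lower).

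CYP2S1 and CYP4V2 were not called in any comparison, with log2 fold changes of -0.28 ± 0.24 and 0.44 ± 0.22 for the libraries labelled knockdown. Summed over the 37 genes, the CYP level was 114 RPM ± 10.5 in gCtl (n = 5), 126 RPM ± 6.13 in g1 (n = 3) and 135 RPM ± 17.8 in g2 (n = 2).

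Neither of the 2 tested UGT genes was called by edgeR, and both had an unadjusted p above 0.05 in every comparison, the lowest being 0.0815. UGT1A1, which conjugates bilirubin and the irinotecan product SN-38, was at 7.75, 12.1, 9.24, 10.3 and 12.1 CPM in gCtl, at 7.50, 6.75 and 9.62 CPM in g1, and at 3.23 and 15.3 CPM in g2 (log2 fold change -0.27 ± 0.31, adjusted p = 0.556, edgeR). The UGT1A genes share their last exons, and 0% of the 31-base stretches at the 3′ end of UGT1A10 were its own. The 9 UGT1A genes summed were at 15.0 to 15.5 RPM in gCtl and at 9.81 to 18.6 RPM in the guide libraries, and the 7 UGT2B genes at 1.96 to 3.67 and 1.51 to 6.69 RPM.

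Genes that supply these enzymes were counted from lists drawn up with earlier results known. Over all 11640 genes tested, 8.14% were higher and 11% lower in the libraries labelled knockdown. No list was tested against those shares. Of 5 electron donors of CYPs, none was higher and 1 lower in the libraries labelled knockdown, CYB5R1 (-0.96 ± 0.21, adjusted p = 0.00437, edgeR), and the P450 reductase POR was at -0.07 ± 0.13. Of 5 genes of sulfate donor (PAPS) supply, 1 was higher, PAPSS2, which makes PAPS: it averaged 5.43 CPM ± 2.84 in gCtl (n = 5), 22.5 CPM ± 5.21 in g1 (n = 3) and 37.2 CPM ± 4.70 in g2 (n = 2), a log2 fold change of 2.35 ± 0.32 (adjusted p = 0.000224). Of 3 genes of UDP-glucuronic acid supply, 1 was higher, UGP2 (0.64 ± 0.18, adjusted p = 0.0199).

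Of the 3 membrane-bound glutathione transferases, which are unrelated in sequence to the GSTs above, 2 were lower. In the libraries labelled knockdown, 8.14% of all genes tested were higher and 11% lower. MGST2 was at -2.23 ± 0.43 (adjusted p = 0.00244, edgeR) and MGST3 at -1.08 ± 0.20 (adjusted p = 0.00183). Of 16 other tested xenobiotic enzymes, 1 was lower and 1 was higher, AKR1C1. This ketosteroid reductase was at 28.0 CPM ± 8.23 in gCtl, 24.8 CPM ± 3.65 in g1 and 160 CPM ± 45.9 in g2. The AKR1C1 call for the libraries labelled knockdown lay at the threshold (1.49 ± 0.52, adjusted p = 0.04997, edgeR). It was called for g2 (2.51 ± 0.22, adjusted p = 5.3e-06) but not for g1 (-0.18 ± 0.22, adjusted p = 0.612). Of 6 tested CYPs of other families, 1 was higher (CYP27C1) and 1 lower (CYP46A1). By guide, CYP27C1 was called for g2 but not for g1, and CYP46A1 for neither. Another of the 6 was called lower for g2 only.

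Of 10 tested transcription factors that control these enzymes, AHR and PPARA were higher and none was lower. The share over all genes tested was 8.14% higher and 11% lower in the libraries labelled knockdown. AHR was at 59.0 CPM ± 12.9 in gCtl, 74.2 CPM ± 17.7 in g1 and 150 CPM ± 37.8 in g2, with a log2 fold change of 0.34 ± 0.20 for g1 (adjusted p = 0.252, edgeR) and 1.34 ± 0.22 for g2 (adjusted p = 0.000504). PPARA, a fatty acid sensor, was at 0.78 ± 0.14 (adjusted p = 0.00151), and NFE2L2, which drives oxidative stress genes, at 0.46 ± 0.14 (adjusted p = 0.0272), under the required fold. NR1I3, the xenobiotic receptor CAR, was lower for g2 (-0.82 ± 0.18, adjusted p = 0.0039), and NR1I2, the receptor PXR, had 3 or fewer counts in each group.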

How the data were processed

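RNA of 10 Caco-2 libraries was sequenced with the QuantSeq 3′ protocol (single-end reads, polyA RNA). The authors pseudoaligned reads with kallisto (version 42.5 in their notes) and deposited estimated counts per GENCODE transcript, not normalized. Here the estimated counts were summed per gene and rounded, and those of protein-coding genes above 3 RPM in 20% or more of libraries (11640 genes) were fitted with edgeR 4.0.16 (glmQLFit, TMM) in R 4.3.3: knockdown (g1 and g2) against gCtl, and 3 groups. Calls needed an adjusted p (Benjamini-Hochberg) no greater than 0.05 and 1.5-fold or more between groups. The fits were first tested on simulated data with the same spread for all genes and the same 3-fold changes in 200 genes for both guides. That setting is simpler than these data, so it cannot show how reliable the calls are here. Members, lists and the rule for named genes (every member past the filter, all called members in full) were chosen with earlier results of these data known.

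Alternatives were DESeq2 1.42.0, its size factors, library totals, filterByExpr, no filter, limma 3.58.1, no fold minimum, glmTreat, protein-coding transcripts only, summed relatives and leaving out each library. Depth was 3838803 to 8730468 counts, so 3 counts in the smallest library equal 0.781 RPM; intervals cover counting error only. In all 14 pairs of libraries within a group, counts differed beyond sampling noise (chi-square over degrees of freedom 4.78 to 29.9). The labels do not say whether libraries are separate cultures, so p-values measure spread between libraries only. Promoters came from RefSeq (GRCh38.p14, 68 of 86 members matched), positions and 3′ ends from GENCODE 29, which may differ from the release the authors used. Values of some single genes are not reported here. Strand use in counting is not given in the sources used here.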

Additional observations from a re-analysis of the deposited data

Results flagged for a closer look

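In gCtl (5 libraries), 1 library stood apart from the other 4 in 3 of the 29 enzyme genes: GSTK1 at 32.7 CPM, GSTM2 at 13.9 CPM and UGT1A10 at 4.25 CPM, each the highest of its group by Dixon's criterion, which flags about 1 group in 20 by chance. For SULT2A1 and CYP2R1 the difference between the guides passed the edgeR test, with log2 fold changes of g2 against g1 of -1.51 and -1.01.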

How the results depend on the processing

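Of the 30 calls on enzyme genes, 9 were kept under every alternative that could be computed: those of GSTA1 and SULT1C2 in all 3 comparisons with gCtl, SULT1A3 for knockdown and g1, and GSTM3 for knockdown. No called value changed sign. Tested against a fold of 1.5 (glmTreat), 4 enzyme genes were called for knockdown, 4 for g1, 4 for g2 and 0 between guides, and 488, 506, 802 and 92 of all genes. With protein-coding transcripts only, 7 enzyme genes were called for knockdown, 7 for g1, 6 for g2 and 1 between guides. Over all genes the counts were then 1790, 1532, 2073 and 360. Leaving out 1 library gave 7 to 11 enzyme genes for knockdown, 7 to 12 for g1, 5 to 11 for g2 (5 without g2 replicate 2) and 0 to 2 between guides. Over all genes it gave 1701 to 2424, 1249 to 2260 (lowest without g1 replicate 3), 1501 to 3114 (lowest without g2 replicate 2) and 267 to 858 (lowest without g1 replicate 1; 314 without g1 replicate 2). Library totals moved the median log2 fold change of all genes to -0.16 for g2 and -0.10 between guides, against 0.00 and 0.01 with TMM. Of all calls, 26.7% were then higher for g2 and 16.6% between guides, instead of 45.1% and 31.3%, and 686 of 2244 for knockdown instead of 948 of 2232. With no filter, CYP2F1, CYP4F12, SULT1C3 and SULT1C4 were called higher and UGT1A8 lower for knockdown, on few counts. No paired analysis was possible because the labels carry no replicate numbers: those used here follow the order of the samples and only name libraries.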
